A study of Mus musculus with 24 samples.

Results

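The genes described are 46 genes of the cell cycle and of DNA replication, listed by function: D cyclins and their kinases, E cyclins with Cdk2 and E2f1, CDK inhibitors, replication origin and helicase genes, replication fork and nucleotide synthesis genes, and mitotic genes. A gene was kept where at least 1 of its probes had a detection p under 0.01 on at least 3 of 24 arrays, and it was read on its brightest such probe. This kept 42 of the 46, out of 8875 genes kept in all. Ccnb1 and Mki67 had no probe named for them, and the probes of Ccnb2 and Bub1 were detected on 0 arrays. The list was not chosen by a threshold on the responses described here, but it was drawn up with earlier results of these data known.

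The study asked what the loss of Gch1, which encodes the first enzyme of tetrahydrobiopterin synthesis, does to the response of macrophages to LPS. Bone marrow-derived macrophages (BMDM) were grown for 7 days with L929 conditioned medium from the marrow of adult female C57BL/6J mice. After 2 h without serum the cells received LPS together with 10 ng/ml interferon-gamma, and RNA was taken just before stimulation (0 h) and at 2, 8 and 24 h for Illumina mouse whole-genome arrays. The 3 wild-type animals (numbers 2, 3 and 6) were Gch1fl/fl, written GCHfl/fl in the labels, and carried the floxed allele without Cre. The 3 Gch1fl/flTie2cre animals (numbers 1, 4 and 5) carried the same floxed allele, in which loxP sites flank exons 2 and 3, and Tie2cre, a Cre transgene active in endothelial and blood cell lineages. Every animal was measured at all 4 times, which gives 8 groups of 3 arrays. The study's methods give serum-free medium for the stimulation, and list L929 conditioned medium only for the 7 days of culture before it. None of the arrays analysed here is of unstimulated cells at 2, 8 or 24 h. In these arrays time in culture, the change of medium and stimulation cannot be told apart.

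A cell that enters the cycle first raises D cyclins, which act with Cdk4 and Cdk6 to phosphorylate the retinoblastoma protein and release E2F factors. E2F factors switch on cyclin E, the Mcm helicase and the nucleotide synthesis enzymes of S phase, and CDK inhibitors oppose these steps. Mitotic genes follow later, under the DREAM and B-Myb-FoxM1 complexes, which act through CHR elements near transcription starts, often beside CCAAT boxes that NF-Y binds. Macrophages, which need CSF-1 to divide, are known to leave the cycle when activated by LPS or interferon-gamma.

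Levels are given on the log2 scale after background correction and quantile normalization, so that a difference of 1 is a doubling of signal. Differences come from limma fitted to all 16498 tested probes, in which the animal entered as a random block, and Benjamini-Hochberg adjustment was made over all of them. The p-values measure the spread between the cultures of different animals. The block used 1 correlation within an animal, 0.124, for all probes. Where the animals differed more in the level of a gene, part of that difference stayed in the error of the comparisons of times. A member was called where the adjusted p was under 0.05 and the fold change over 1.5, and "rose" or "fell" is written only of such members. Levels of different genes are not compared, because each probe binds with its own strength. RNA was measured in bulk, so fewer cycling cells and less RNA per cycling cell cannot be told apart. The 3 values of a group stand in the order animals 2, 3 and 6 for wild-type and animals 1, 4 and 5 for Gch1fl/flTie2cre.

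Before any member is described, the arrays and labels were checked. Mean intensity per array ran from 593 to 1750, and 27 to 33.3% of the probes were detected. Gch1 itself read 12.32 to 14.59 on the wild-type arrays and 10.43 to 12.27 on the Gch1fl/flTie2cre arrays, with no overlap between the genotypes at any time, although the position of its probe relative to the deleted exons is not known here. Of 9 macrophage markers 7 were tested and all 7 were detected on 24 arrays, with Adgre1, the macrophage surface marker, at 14.46 to 15.41. No marker of B cells, T cells, erythroid cells or mast cells was tested, and of the dendritic, fibroblast and endothelial markers only Siglech and Kdr were. Of 10 neutrophil and granulocyte precursor markers 5 were tested: S100a8, S100a9, Ngp, Ltf and Camp.

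The animals were not alike in cell cycle genes before stimulation. Animal 5 (Gch1fl/flTie2cre) and animal 6 (wild-type) had the highest levels at 0 h. The median level of the 17 S-phase members was 10.72 in animal 5 and 10.78 in animal 6, against 8.15 to 8.58 in the other 4 animals. The median level of the 13 mitotic members was 10.48 and 9.84, against 7.86 to 8.69. Both animals lay above the other 4 for 38 of the 42 members at 0 h, 37 at 2 h, 23 at 8 h and 15 at 24 h, and over all genes the shares were 23.5, 26.7, 21.4 and 19.8%. By 24 h the S-phase median was 7.26 and 7.27 in these 2 animals and 7.05 to 7.69 in the others, so these medians overlapped. The mitotic median was 6.06 in both and 5.57 to 6.21 in the others, all below the lowest detected signal of the 24 h arrays (6.30 to 6.78), where values have no order. Both animals still lay above the other 4 at 24 h for 6 of the 13 mitotic members, Prc1, Bub1b and Tpx2 among them, and below them for 0. The 6 include Birc5 and Plk1, which were detected on 0 arrays at 24 h, so that their values there have no order.

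Granulocyte markers ran the other way. The summed level of S100a9, Ngp, Ltf and Camp on the normalized scale was 150 in animal 6 and 135 in animal 5 at 0 h, and 901 to 3300 in the other 4 animals. Over all times it was 131 to 172 in animals 5 and 6 and 160 to 5000 in the others. In animals 5 and 6 all 4 markers lay below the lowest detected signal of the array at every time, so their sums are background and not a measured level. By group the sum ran from 150 to 3210 at 0 h, 172 to 1560 at 8 h and 143 to 490 at 24 h in wild-type cells, and from 135 to 3300, 142 to 2000 and 131 to 808 in Gch1fl/flTie2cre cells. S100a8 was left out of this sum because it is also induced in stimulated macrophages. The part of granulocyte precursors in the results was not tested. The 2 animals belong to different genotypes, and for several results below the values in animals 1 to 4 alone, where each group has 2 animals, are given beside those of all animals.

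**Figure D1:**
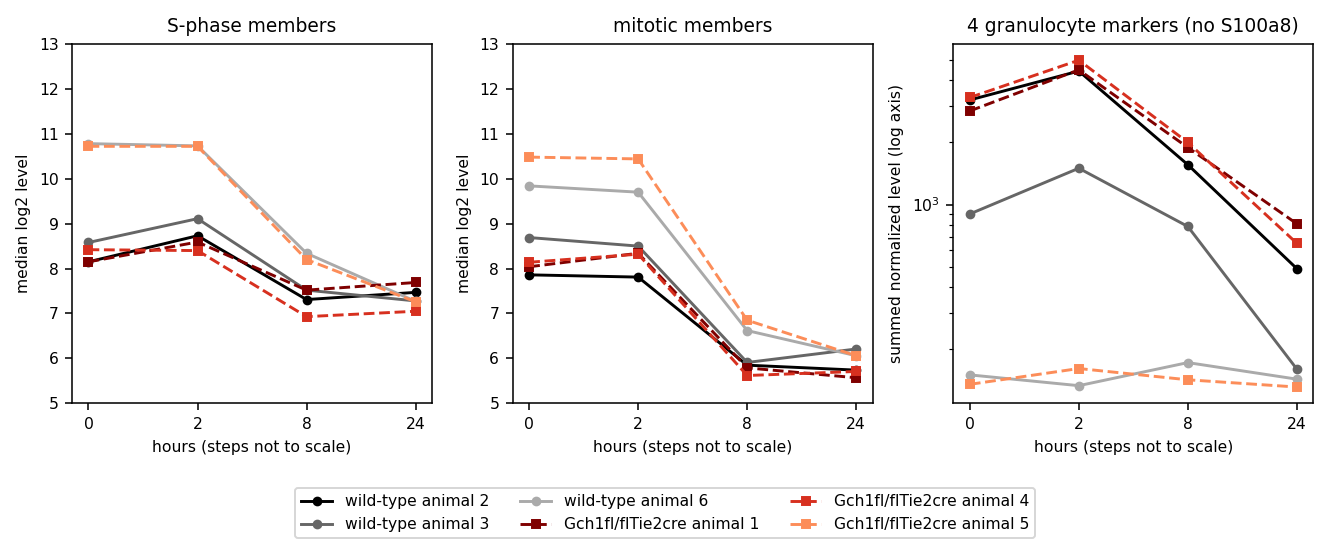
Median log2 level of the 17 S-phase members (left) and the 13 mitotic members (centre) in each animal at 0, 2, 8 and 24 h, and the summed normalized level of S100a9, Ngp, Ltf and Camp (right, log axis). Each line is 1 animal, solid for wild-type and dashed for Gch1fl/flTie2cre. Animals 5 and 6 lie above the other 4 in both gene classes until 8 h. At 24 h the S-phase medians overlap and the mitotic medians, 5.57 to 6.21, all lie below the lowest detected signal.

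The DNA around the transcription starts of the members was searched for E2F, CHR and CCAAT letters, and 5 promoters that hold them are shown. Windows of 300 bases, from 250 before to 50 after each start, were taken from RefSeq on GRCm38.p6. A window was found for 33 of the 42 members, and a gene with several windows was counted once where any held the motif. Motifs were searched as letters on both strands: E2F as TTTGGCGC, TTTCGCGC, TTTCCCGC or TTTGCCGC, CHR as TTTGAA or TTCGAA, and CCAAT as its own letters. E2F letters stood in 6 of 8 helicase and licensing members, 1 of 7 fork and nucleotide members and 1 of 9 mitotic members, and in 2.6% of all 27025 gene symbols. CHR letters stood in 8 of 9 mitotic members, 4 of 15 S-phase members and 21.7% of all symbols. CCAAT stood in 8 of 9 mitotic members, 9 of 15 S-phase members and 41.1% of all symbols. A match is a run of letters and not a shown binding site.

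The 180 bases before the start are printed in lower case with E2F, CHR and CCAAT matches of either strand in capitals, each read 5′ to 3′ on the strand of the gene. Mcm5 (chr8:75109329-75109508, plus strand) and Mcm6 (chr1:128359706-128359885, minus strand) each hold a pair of E2F matches that overlap on opposite strands, Mcm6 with 1 further match, and no CHR letters. Cdk1 (chr10:69352913-69353092, minus strand) holds all 3 motifs. Cdc20 (chr4:118437344-118437523, minus strand) and Top2a (chr11:99024190-99024369, minus strand) hold CHR and CCAAT letters and no E2F letters.
Mcm5: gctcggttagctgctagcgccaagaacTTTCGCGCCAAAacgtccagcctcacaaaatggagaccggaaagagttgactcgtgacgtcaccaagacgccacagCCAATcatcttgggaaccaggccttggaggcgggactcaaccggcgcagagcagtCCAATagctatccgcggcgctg
Mcm6: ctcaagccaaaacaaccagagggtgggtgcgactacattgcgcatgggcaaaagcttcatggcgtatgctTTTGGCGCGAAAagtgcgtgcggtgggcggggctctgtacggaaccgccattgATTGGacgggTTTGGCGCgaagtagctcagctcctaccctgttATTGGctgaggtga
Cdk1: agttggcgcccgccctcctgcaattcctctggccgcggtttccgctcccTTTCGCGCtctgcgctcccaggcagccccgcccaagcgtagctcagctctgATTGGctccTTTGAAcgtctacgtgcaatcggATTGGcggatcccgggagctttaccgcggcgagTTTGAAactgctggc
Cdc20: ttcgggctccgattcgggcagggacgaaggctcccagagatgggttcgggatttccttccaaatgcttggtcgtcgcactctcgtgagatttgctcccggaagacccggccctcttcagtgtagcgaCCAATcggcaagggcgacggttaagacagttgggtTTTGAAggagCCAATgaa
Top2a: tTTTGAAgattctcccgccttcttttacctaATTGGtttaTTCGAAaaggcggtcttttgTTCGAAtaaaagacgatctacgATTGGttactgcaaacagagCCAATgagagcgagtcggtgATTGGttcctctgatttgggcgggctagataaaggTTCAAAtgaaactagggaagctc

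Most calls among the cell cycle genes were falls, and they came between 2 and 8 h in both genotypes. In wild-type cells 2 members rose and 1 fell at 2 h against 0 h, while 6.57% of all genes rose and 9.67% fell. At 8 h 3 members rose and 19 fell (14.7 and 16.6% of all genes, 31.3% in either direction), and at 24 h 4 rose and 18 fell (17.7 and 15.2%). In Gch1fl/flTie2cre cells 2 rose and 1 fell at 2 h (6.31 and 10.7%), 3 rose and 18 fell at 8 h (15.8 and 19.2%, 34.9% in either direction), and 3 rose and 19 fell at 24 h (17.5 and 15.7%). At 8 and 24 h the members that fell were a larger share of 42 than of all genes, and those that rose a smaller one. Between 2 and 8 h 2 members rose and 19 fell in wild-type cells (19.8 and 17.1%), and 3 rose and 22 fell in Gch1fl/flTie2cre cells (20.8 and 18.2%, 39.0% in either direction). Between 8 and 24 h 2 rose and 4 fell (16.6 and 12.4%), and 0 rose and 3 fell (17.9 and 13.7%).

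The direction was also counted within each animal. At 8 h 30 of the 42 members were lower than at 0 h in all 6 animals, against 30.7% of all genes, and 5 were higher in all 6, against 25.2%. At 24 h 29 were lower in all 6 and 4 higher, against 21.3 and 23.5%. At 2 h 8 were lower and 4 higher, against 29.8 and 16.2%. These counts include the 10 members detected only at 0 or 2 h, named below, and were not made without them. Values below detection, which have no order, enter them.

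How the members were kept bears on these counts. Mcm2, Mcm3, Mcm7, Cdc45, Rrm2, Ccna2, Top2a, Cdc20, Plk1 and Kif11 were detected only at 0 or 2 h and passed the filter through those times alone, and among them Mcm2 and Kif11, with Ccne2 besides, were detected only in animals 5 and 6. Among the 32 other members 3 rose and 13 fell at 8 h and 4 rose and 12 fell at 24 h in wild-type cells. In Gch1fl/flTie2cre cells 3 rose and 13 fell, and 3 rose and 14 fell.

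**Figure D2:**
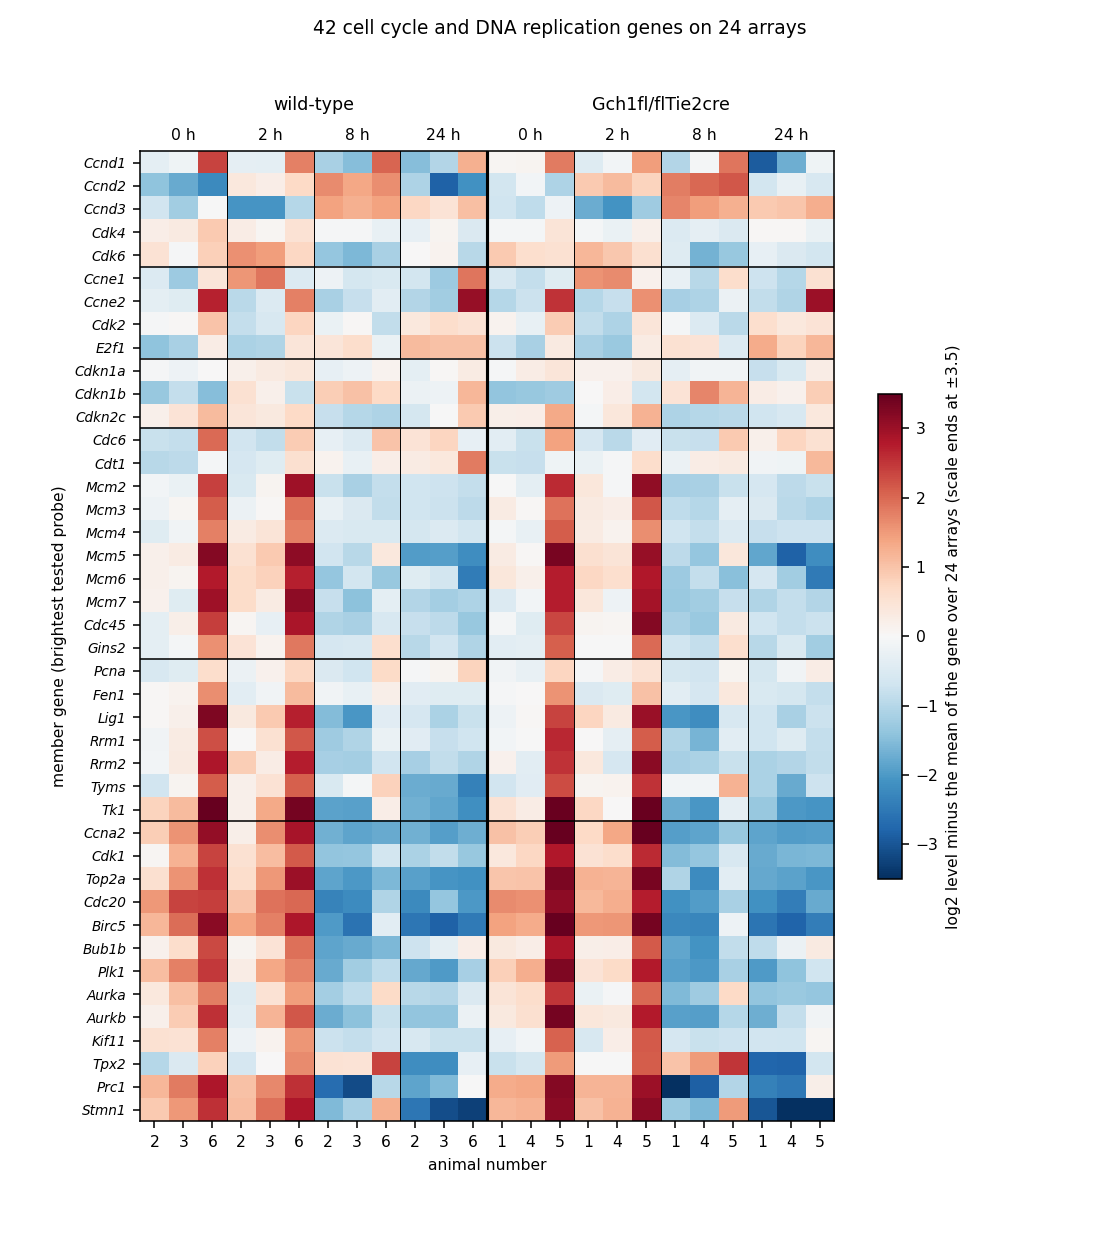
Log2 level of each of the 42 members on each of the 24 arrays, minus that gene's mean over the 24 arrays, with members in rows by class and arrays in columns by genotype, time and animal; red is above and blue below the mean, and the colour scale ends at ±3.5. Mitotic members other than Tpx2 turn from red or pale to blue between 2 and 8 h in most animals of both genotypes, and the columns of animals 5 and 6 are the reddest at 0 and 2 h.

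The 3 D cyclins took 3 different courses. Ccnd2 rose early and at 24 h was not called against 0 h, Ccnd3 fell at 2 h and then rose, and Ccnd1 did not rise at any time. Wild-type Ccnd2 read from 8.65, 8.29, 7.83 at 0 h through 10.44, 10.30, 10.75 at 2 h and 11.70, 11.40, 11.68 at 8 h to 8.97, 7.24, 7.93 at 24 h. Ccnd2 in Gch1fl/flTie2cre cells read from 9.42, 9.96, 8.98 at 0 h through 10.98, 11.16, 10.85 at 2 h and 11.85, 12.08, 12.22 at 8 h to 9.42, 9.81, 9.51 at 24 h. Every 2 h and 8 h value lay above every 0 h value in both genotypes. The wild-type mean rose by 2.24 ± 0.29 (SE, n = 3, limma adjusted p = 2.6e-05) at 2 h and 3.34 at 8 h, then fell by 3.55 from 8 to 24 h, to a difference of −0.21 from the 0 h mean (adjusted p = 0.619). In Gch1fl/flTie2cre cells the differences from 0 h were 1.54, 2.60 and 0.13.

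Wild-type Ccnd3 read from 9.74, 9.18, 10.39 at 0 h through 8.32, 8.32, 9.39 at 2 h and 11.81, 11.63, 11.80 at 8 h to 11.12, 10.87, 11.46 at 24 h. Ccnd3 in Gch1fl/flTie2cre cells read from 9.69, 9.52, 10.21 at 0 h through 8.67, 8.31, 9.16 at 2 h and 12.10, 11.85, 11.63 at 8 h to 11.31, 11.38, 11.68 at 24 h. The 8 h and 24 h values lay above every 0 h value in both genotypes. Ccnd3, which partners Cdk4 and Cdk6 as the other D cyclins do, fell by 1.09 ± 0.28 at 2 h in wild-type cells (SE, n = 3, limma adjusted p = 0.00898) and by 1.09 in Gch1fl/flTie2cre cells. It then rose to 1.98 and 2.05 above 0 h at 8 h (adjusted p = 1.9e-05 and 1.1e-05) and stood 1.38 and 1.65 above at 24 h. Its 2 other probes rose as well at 8 and 24 h, but neither was called at 2 h, where they stood at −0.28 and −0.34 in wild-type cells (adjusted p = 0.483 and 0.518) and at −0.63 and −0.16 in Gch1fl/flTie2cre cells (adjusted p = 0.0673 and 0.787). Ccnd3 lost its wild-type call at 2 h without animal 2 (adjusted p = 0.154). Ccnd3 lost its Gch1fl/flTie2cre call at 2 h without animal 1 or 4 in turn (adjusted p = 0.0795 and 0.0886).

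Wild-type Ccnd1 read from 10.27, 10.45, 12.96 at 0 h through 10.29, 10.26, 12.36 at 2 h and 9.47, 9.12, 12.64 at 8 h to 9.10, 9.59, 11.84 at 24 h. Ccnd1 in Gch1fl/flTie2cre cells read from 10.66, 10.71, 12.41 at 0 h through 10.14, 10.52, 12.06 at 2 h and 9.59, 10.53, 12.49 at 8 h to 7.68, 8.89, 10.45 at 24 h. Animals 5 and 6 were the highest of their genotype at every time. The Gch1fl/flTie2cre mean fell by 2.25 ± 0.84 at 24 h (SE, n = 3, limma adjusted p = 0.0406), and the wild-type difference of −1.05 did not pass (adjusted p = 0.346). The difference between these 2 responses was −1.20 ± 1.18 and did not pass either (adjusted p = 1). In animals 1 to 4 alone the differences were −2.40 in Gch1fl/flTie2cre cells (adjusted p = 6.5e-05) and −1.01 in wild-type cells (adjusted p = 0.0204), both called. Ccnd1 lost its Gch1fl/flTie2cre call at 24 h without animal 1, 2, 3, 4 or 5 in turn (adjusted p = 0.188, 0.0519, 0.0571, 0.137 and 0.064).

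Of the kinases of the D cyclins, Cdk6 fell at 8 h in both genotypes and Cdk4 in wild-type cells. Wild-type Cdk6 read from 7.33, 6.78, 7.64 at 0 h through 8.42, 8.29, 7.54 at 2 h and 5.46, 5.25, 5.68 at 8 h to 6.82, 6.93, 5.86 at 24 h. Cdk6 in Gch1fl/flTie2cre cells read from 7.74, 7.40, 7.34 at 0 h through 7.98, 7.75, 7.37 at 2 h and 6.38, 5.17, 5.50 at 8 h to 6.54, 6.31, 6.18 at 24 h. Cdk6 was detected on 0 of 6 arrays at 8 h, on all 6 at 0 h and 2 h, and on 2 wild-type and 1 Gch1fl/flTie2cre array at 24 h. Set against the lowest detected signal, it was at least 1.32-fold lower at 8 h in wild-type cells and at least 1.44-fold lower in Gch1fl/flTie2cre cells (limma adjusted p = 1.4e-04 and 1.2e-04). From 8 to 24 h wild-type Cdk6 was called higher, with 0 of 3 arrays detected at 8 h and 2 of 3 at 24 h (adjusted p = 0.0101). Its 24 h mean of 6.54 lay below the lowest detected signals of the 8 h arrays, 6.76 to 6.95. This difference therefore had no bound above 1.

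Wild-type Cdk4 read from 10.13, 10.21, 10.81 at 0 h through 10.14, 9.95, 10.40 at 2 h and 9.85, 9.84, 9.63 at 8 h to 9.61, 9.98, 9.39 at 24 h. Cdk4 in Gch1fl/flTie2cre cells read from 9.83, 9.83, 10.34 at 0 h through 9.82, 9.67, 10.08 at 2 h and 9.41, 9.59, 9.40 at 8 h to 9.92, 9.93, 9.66 at 24 h. The wild-type values at 8 and 24 h lay below those at 0 h. Cdk4 fell by 0.61 ± 0.20 at 8 h and by 0.72 ± 0.20 at 24 h in wild-type cells (SE, n = 3, limma adjusted p = 0.0237 and 0.00853). The Gch1fl/flTie2cre differences were −0.53 and −0.16 and were not called. Neither wild-type fall was called in animals 1 to 4 alone, where the differences were −0.32 and −0.37 (adjusted p = 0.115 and 0.0701). Cdk4 lost its wild-type call at 8 h without animal 6 (adjusted p = 0.268). Cdk4 lost its wild-type call at 24 h without animal 6 (adjusted p = 0.193).

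Of the E2f1 and cyclin E group, E2f1, an activator of S-phase genes, was the only called member in the 6 comparisons with 0 h. Wild-type E2f1 read from 8.74, 9.0, 10.40 at 0 h through 9.05, 9.08, 10.58 at 2 h and 10.58, 10.77, 9.91 at 8 h to 11.26, 11.18, 11.16 at 24 h. E2f1 in Gch1fl/flTie2cre cells read from 9.38, 9.0, 10.45 at 0 h through 9.0, 8.85, 10.42 at 2 h and 10.68, 10.63, 9.67 at 8 h to 11.44, 10.93, 11.31 at 24 h. Animals 5 and 6 started highest, were the lowest of their genotypes at 8 h, and lay among the others at 24 h. E2f1 rose by 1.82 ± 0.47 at 24 h in wild-type cells (SE, n = 3, limma adjusted p = 0.00539) and by 1.62 in Gch1fl/flTie2cre cells (adjusted p = 0.0115). In animals 1 to 4 alone it rose at 8 h already, by 1.80 and 1.46 (adjusted p = 5.3e-06 and 2.8e-05). E2f1 lost its wild-type call at 24 h without animal 2 or 3 in turn (adjusted p = 0.0847 and 0.0675). E2f1 lost its Gch1fl/flTie2cre call at 24 h without animal 1 or 4 in turn (adjusted p = 0.102 and 0.0951).

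Wild-type Ccne1 read from 6.16, 5.36, 7.04 at 0 h through 8.17, 8.51, 6.14 at 2 h and 6.45, 6.01, 6.10 at 8 h to 5.99, 5.36, 8.49 at 24 h. Ccne1 in Gch1fl/flTie2cre cells read from 6.07, 5.80, 6.21 at 0 h through 8.21, 8.28, 6.77 at 2 h and 6.36, 5.66, 7.24 at 8 h to 5.90, 5.64, 7.15 at 24 h. Cyclin E1 drives entry into S phase with Cdk2, and at 2 h it was detected in animals 1 to 4 and in neither animal 5 nor animal 6. The 2 h differences were not called with all animals: 1.42 ± 0.69 for wild-type (limma adjusted p = 0.179) and at least 2.45-fold above 0 h in the other genotype, which had 0 detected arrays at 0 h (adjusted p = 0.0911). In animals 1 to 4 alone, with 0 of 2 arrays of each genotype detected at 0 h and both at 2 h, Ccne1 was at least 3.85-fold above 0 h for wild-type and at least 3.6-fold for the other genotype (adjusted p = 2.9e-05 and 7.6e-05), and it was detected on 0 of their arrays at 8 and 24 h.

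Wild-type Ccne2 read from 6.25, 6.15, 9.28 at 0 h through 5.63, 6.09, 8.34 at 2 h and 5.45, 5.76, 6.21 at 8 h to 5.55, 5.37, 9.64 at 24 h. Ccne2 in Gch1fl/flTie2cre cells read from 5.59, 5.83, 9.11 at 0 h through 5.59, 5.76, 8.19 at 2 h and 5.42, 5.50, 6.38 at 8 h to 5.72, 5.53, 9.56 at 24 h. Cyclin E2 was detected in animals 5 and 6 alone, at 0, 2 and 24 h and not at 8 h. None of its time differences was called. At 24 h both animals were back at or above their 0 h level, which the S-phase and mitotic medians were not. Cdk2 differed from 0 h by 0.16 in wild-type cells and 0.23 in Gch1fl/flTie2cre cells at 24 h, neither of them called.

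Of the CDK inhibitors, Cdkn1b (p27) rose at every time in both genotypes, Cdkn2c (p18) fell at 8 h, and Cdkn1a (p21) was not called. Wild-type Cdkn1b read from 6.64, 7.13, 6.47 at 0 h through 8.49, 8.13, 7.18 at 2 h and 8.82, 8.98, 8.65 at 8 h to 7.74, 7.77, 9.11 at 24 h. Cdkn1b in Gch1fl/flTie2cre cells read from 6.58, 6.62, 6.70 at 0 h through 7.97, 8.19, 7.32 at 2 h and 8.44, 9.65, 9.14 at 8 h to 8.22, 8.10, 8.82 at 24 h. Every value after 0 h lay above every 0 h value of its genotype. The rises of Cdkn1b were 1.18 ± 0.37, 2.07 and 1.46 in wild-type cells (SE, n = 3, limma adjusted p = 0.0321, 2.6e-04 and 0.00447) and 1.19, 2.44 and 1.75 in Gch1fl/flTie2cre cells. It was detected on 2 of 3 wild-type arrays at 0 h and on every other array. Cdkn1b was called at each time in both genotypes in animals 1 to 4 alone too, with 24 h differences of 0.87 and 1.56. Cdkn1b lost its wild-type call at 2 h without animal 2 or 3 in turn (adjusted p = 0.332 and 0.117). Cdkn1b lost its wild-type call at 24 h without animal 6 (adjusted p = 0.0634). Cdkn1b lost its Gch1fl/flTie2cre call at 2 h without animal 1 or 4 in turn (adjusted p = 0.185 and 0.219).

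Wild-type Cdkn2c read from 8.86, 9.17, 9.79 at 0 h through 9.10, 9.02, 9.39 at 2 h and 7.89, 7.68, 7.60 at 8 h to 8.07, 8.67, 9.60 at 24 h. Cdkn2c in Gch1fl/flTie2cre cells read from 8.88, 8.91, 10.00 at 0 h through 8.61, 9.09, 9.91 at 2 h and 7.62, 7.70, 7.74 at 8 h to 7.99, 8.14, 9.06 at 24 h. All 8 h values lay below all values at 0 and 2 h. Cdkn2c, an inhibitor of Cdk4 and Cdk6, fell by 1.55 ± 0.34 at 8 h in wild-type cells (SE, n = 3, limma adjusted p = 0.00159) and by 1.58 in Gch1fl/flTie2cre cells, and rose by 1.06 from 8 to 24 h in wild-type cells (adjusted p = 0.0226). At 24 h its 3 probes did not run together: the brightest stood at −0.50 against 0 h in wild-type cells and was not called, one other fell by 1.21 and the remaining one rose by 0.87, both called.

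Wild-type Cdkn1a read from 14.67, 14.55, 14.72 at 0 h through 14.88, 15.04, 15.11 at 2 h and 14.43, 14.54, 14.85 at 8 h to 14.38, 14.75, 15 at 24 h. Cdkn1a in Gch1fl/flTie2cre cells read from 14.68, 14.98, 15.14 at 0 h through 14.87, 14.87, 15.07 at 2 h and 14.39, 14.60, 14.58 at 8 h to 13.90, 14.19, 14.97 at 24 h. The genotypes overlapped at every time. Its largest mean difference from 0 h was −0.58 in Gch1fl/flTie2cre cells at 24 h (limma adjusted p = 0.0291), which did not pass the fold limit, while its 2 other probes passed there at −0.83 and −1.09.

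**Figure D3:**
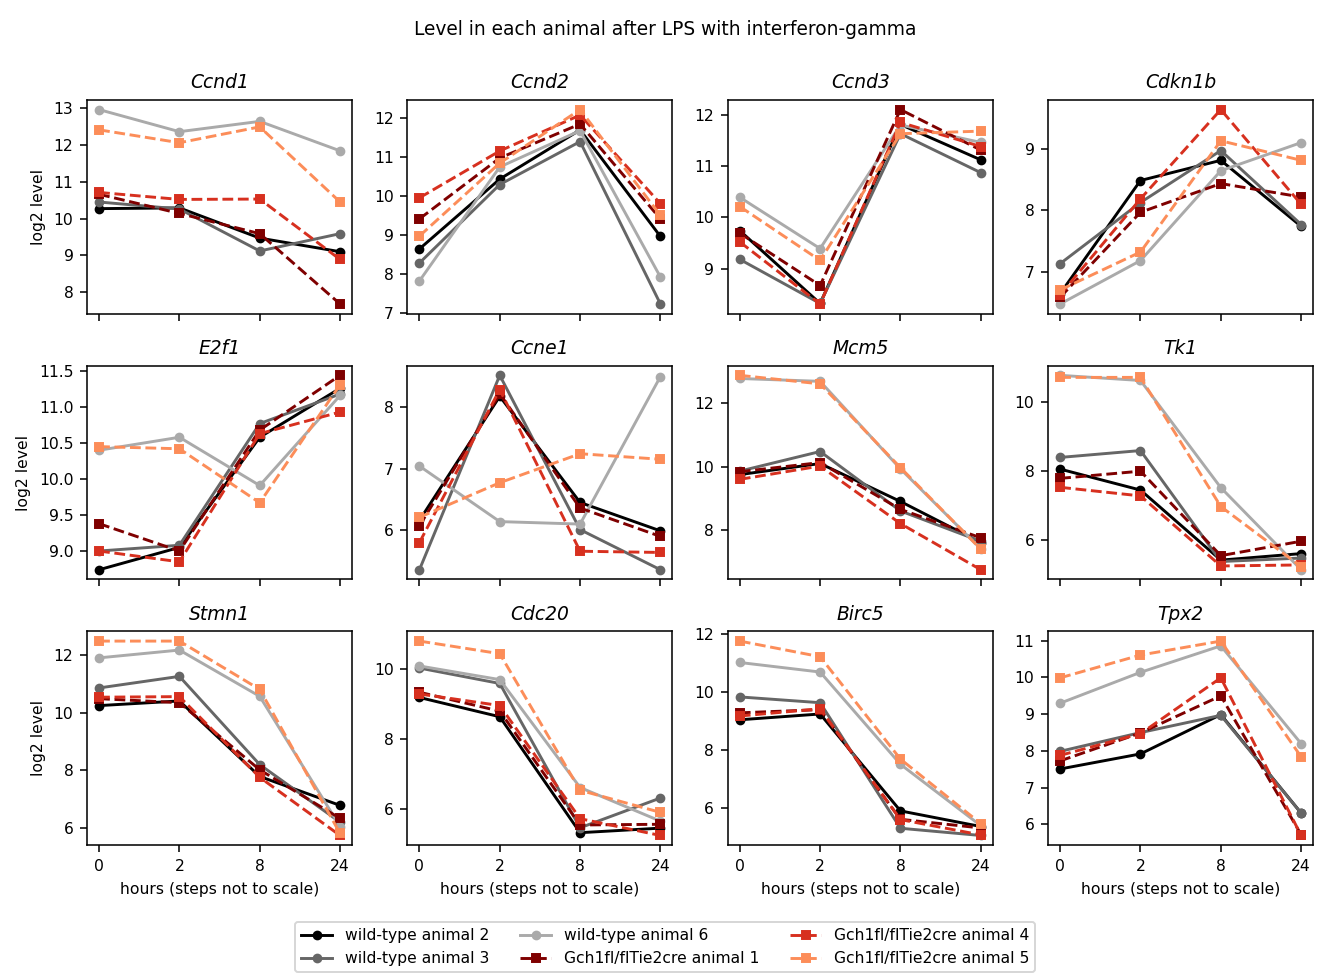
Log2 level of 12 members in each animal at 0, 2, 8 and 24 h (time steps not to scale), solid lines for wild-type animals 2, 3 and 6 and dashed lines for Gch1fl/flTie2cre animals 1, 4 and 5. Ccnd2 peaks at 8 h, Ccnd3 dips at 2 h and then rises, and Birc5 and Cdc20 drop between 2 and 8 h. Tpx2 peaks at 8 h.

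The S-phase members gave fewer calls than the mitotic ones, although they were more numerous. In direction, 13 of the 17 were lower than at 0 h in all 6 animals at 8 h and 14 at 24 h, and 1 was higher at each time. The shares of all genes are those given for the direction counts above, and 5 of the 17 were detected only at 0 or 2 h. At 2 h none of the 17 was called in either genotype. At 8 h 4 fell in wild-type cells (16.6% of all genes fell), and at 24 h 6 fell and 1 rose (15.2% fell). For Gch1fl/flTie2cre 5 fell at 8 h and 6 at 24 h (19.2 and 15.7%). Among the 12 S-phase members detected also at 8 or 24 h these falls numbered 3, 5, 4 and 5. Their median difference from 0 h was −1.61 and −1.45 in wild-type cells and −1.48 and −1.52 in Gch1fl/flTie2cre cells, where the median of all genes was −0.05, 0.04, −0.06 and 0.02. With undetected members set at their bounds the medians were −0.48, −1.0, −0.52 and −1.17. In animals 1 to 4 alone 9 S-phase members fell and 1 rose at 8 h in wild-type cells, where 19.9% of all genes fell, and 11 fell and 2 rose at 24 h (38.3% of all genes were called in either direction). In Gch1fl/flTie2cre cells 11 fell and 1 rose (22.7%), and 9 fell and 2 rose (17.3%). The medians were then −0.79, −0.68, −0.97 and −0.60, so more members were called and the medians lay nearer 0. Some of these falls are of values below detection. Mcm7 was called lower in all 4 comparisons and was detected on 0 of 2 arrays per group at 0, 8 and 24 h.

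Among origin and helicase members, Mcm5 and Mcm6 fell in both genotypes. The Mcm proteins form the ring that unwinds DNA at the fork. Wild-type Mcm5 read from 9.75, 9.86, 12.79 at 0 h through 10.10, 10.48, 12.70 at 2 h and 8.90, 8.60, 9.93 at 8 h to 7.60, 7.64, 7.40 at 24 h. Mcm5 in Gch1fl/flTie2cre cells read from 9.84, 9.60, 12.89 at 0 h through 10.13, 10.02, 12.62 at 2 h and 8.65, 8.20, 9.97 at 8 h to 7.75, 6.74, 7.39 at 24 h. Animals 5 and 6 were well above the others at 0 h, and the genotypes' 24 h values lay below all their 0 h values. Mcm5 fell by 3.26 ± 0.79 at 24 h in wild-type cells (SE, n = 3, limma adjusted p = 0.00316) and by 3.48 in Gch1fl/flTie2cre cells (adjusted p = 0.00189). In animals 1 to 4 alone the differences were −2.19 and −2.47, and already at 8 h −1.05 and −1.30, all called.

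Wild-type Mcm6 read from 9.91, 9.81, 12.49 at 0 h through 10.36, 10.54, 12.44 at 2 h and 8.36, 9.08, 8.39 at 8 h to 9.29, 9.09, 7.27 at 24 h. Mcm6 in Gch1fl/flTie2cre cells read from 10.13, 9.91, 12.47 at 0 h through 10.46, 10.32, 12.52 at 2 h and 8.46, 8.89, 8.25 at 8 h to 9.14, 8.51, 7.26 at 24 h. At 24 h animals 5 and 6 were the lowest of their genotypes, after being the highest at 0 h. Mcm6 differed by −2.18 ± 0.79 in wild-type cells and by −2.53 ± 0.79 in Gch1fl/flTie2cre cells at 24 h (SE, n = 3, limma adjusted p = 0.0363 and 0.0167). Without animals 5 and 6 these differences were −0.67 and −1.20 (adjusted p = 0.0419 and 0.0017), both still called, and those at 8 h −1.14 and −1.35, called as well. Mcm6 lost its wild-type call at 8 h without animal 1, 2, 3, 4 or 6 in turn (adjusted p = 0.062, 0.0977, 0.0591, 0.0653 and 0.284). Mcm6 lost its wild-type call at 24 h without animal 1, 4 or 6 in turn (adjusted p = 0.0536, 0.0563 and 0.544). Mcm6 lost its Gch1fl/flTie2cre call at 8 h without animal 1, 4 or 5 in turn (adjusted p = 0.0691, 0.0501 and 0.216). Mcm6 lost its Gch1fl/flTie2cre call at 24 h without animal 5 (adjusted p = 0.295).

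Wild-type Mcm7 read from 6.52, 5.94, 9.34 at 0 h through 7.00, 6.66, 9.50 at 2 h and 5.57, 4.94, 6.02 at 8 h to 5.33, 5.18, 5.29 at 24 h. Mcm7 in Gch1fl/flTie2cre cells read from 5.88, 6.27, 9.11 at 0 h through 6.77, 6.18, 9.28 at 2 h and 5.06, 5.15, 5.56 at 8 h to 5.30, 5.53, 5.34 at 24 h. Mcm7 was detected on 1 array of each genotype at 0 h and on 0 arrays at 8 and 24 h. It was at least 1.66-fold lower at 24 h in wild-type cells and at least 1.52-fold lower in Gch1fl/flTie2cre cells, neither of them called (limma adjusted p = 0.0566 and 0.103). Mcm2, Cdc45 and Gins2, other parts or partners of the helicase, were not called in the comparisons with 0 h, and 4 of the 10 members of this class, Mcm2, Mcm3, Mcm7 and Cdc45, were not detected after 2 h. Mcm3, Mcm4 and Fen1 were called at 24 h in Gch1fl/flTie2cre cells and not in wild-type cells, and the difference between the responses was not called for any of them. Mcm4 and Fen1 were detected on all 24 arrays. Mcm3 was detected on 2 of 3 Gch1fl/flTie2cre arrays at 0 h and on 0 at 24 h. Its 0 h mean there was 6.80, and the lowest detected signals of the 24 h arrays were 6.35 to 6.68. Cdt1, which loads the Mcm helicase, went against its class: it rose by 1.47 ± 0.35 in wild-type cells at 24 h (adjusted p = 0.00314), and stood at 0.86 in Gch1fl/flTie2cre cells (adjusted p = 0.0633). Its partner Cdc6, detected on 1 array of each genotype at 0 h, was not called with all animals. With no array detected at 0 h in animals 1 to 4, Cdc6 was in these at least 1.25-fold and 1.12-fold above 0 h at 24 h (adjusted p = 1.2e-04 and 0.00144).

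Of the genes of the fork and of nucleotide synthesis, Tk1, which salvages thymidine, had the largest wild-type difference at 24 h. Wild-type Tk1 read from 8.05, 8.39, 10.78 at 0 h through 7.44, 8.59, 10.63 at 2 h and 5.40, 5.36, 7.51 at 8 h to 5.59, 5.46, 5.12 at 24 h. Tk1 in Gch1fl/flTie2cre cells read from 7.78, 7.52, 10.72 at 0 h through 7.99, 7.27, 10.72 at 2 h and 5.53, 5.23, 6.96 at 8 h to 5.95, 5.26, 5.21 at 24 h. It was detected on all arrays at 0 and 2 h, on 1 wild-type array at 8 h and on none at 24 h. At 24 h it was at least 5.8-fold lower in wild-type cells and at least 4.58-fold lower in Gch1fl/flTie2cre cells (limma adjusted p = 0.00223 and 0.00618). At 8 h the wild-type difference was −2.98, with 1 of 3 arrays detected, and Gch1fl/flTie2cre cells were at least 3.26-fold lower (adjusted p = 0.0104 and 0.015). Within animals 1 to 4 alone Tk1 was at least 3.49-fold lower at 24 h in wild-type cells and at least 2.41-fold lower in Gch1fl/flTie2cre cells. Tk1 lost its wild-type call at 8 h without animal 3 (adjusted p = 0.0768). Tk1 lost its Gch1fl/flTie2cre call at 8 h without animal 1 or 4 in turn (adjusted p = 0.06 and 0.054). Tk1 lost its Gch1fl/flTie2cre call at 24 h without animal 5 (adjusted p = 0.0709).

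Wild-type Tyms read from 8.15, 8.90, 10.93 at 0 h through 8.98, 9.31, 10.90 at 2 h and 8.28, 8.74, 9.61 at 8 h to 7.09, 7.05, 6.44 at 24 h. Tyms in Gch1fl/flTie2cre cells read from 8.15, 8.42, 11.09 at 0 h through 8.92, 8.93, 11.35 at 2 h and 8.72, 8.72, 10.03 at 8 h to 7.71, 7.05, 8.09 at 24 h. Tyms, thymidylate synthase, was still near its 0 h level at 8 h, where the differences were −0.45 and −0.07 and not called. Between 8 and 24 h it fell by 2.02 ± 0.68 in wild-type cells (SE, n = 3, limma adjusted p = 0.0303), when its difference from 0 h was −2.46, with 2 of 3 arrays detected (adjusted p = 0.0084). In Gch1fl/flTie2cre cells the 24 h difference was −1.60 (adjusted p = 0.073), and in animals 1 to 4 alone −1.45 in wild-type cells and −0.91 in Gch1fl/flTie2cre cells, both called. Tyms lost its wild-type call at 24 h without animal 6 (adjusted p = 0.139).

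Wild-type Rrm2 read from 6.21, 6.62, 9.13 at 0 h through 7.15, 6.56, 9.03 at 2 h and 5.14, 5.09, 5.62 at 8 h to 5.12, 5.42, 5.23 at 24 h. Rrm2 in Gch1fl/flTie2cre cells read from 6.43, 5.93, 8.82 at 0 h through 6.65, 5.71, 9.46 at 2 h and 5.14, 5.19, 5.51 at 8 h to 5.19, 5.26, 5.42 at 24 h. Rrm2, a subunit of ribonucleotide reductase, was detected on 2 of 3 arrays of each genotype at 0 h and on none at 8 and 24 h. It was at least 1.39-fold lower at 8 h and at least 1.72-fold lower at 24 h in wild-type cells (adjusted p = 0.0423 and 0.0382 by limma), and at least 1.07-fold and 1.5-fold lower in Gch1fl/flTie2cre cells, not called. Lig1, the ligase of replication, fell in wild-type cells at 8 and 24 h, with differences of −2.47 and −1.99 (adjusted p = 0.013 and 0.0398), and in Gch1fl/flTie2cre cells at 8 h, and the brightest probe of Rrm1, the other reductase subunit, was called in Gch1fl/flTie2cre cells at 8 h (−1.85, adjusted p = 0.0294) and not in wild-type cells. A second Rrm1 probe was called in wild-type cells at 8 h (−2.49, adjusted p = 0.00656) and 24 h (−1.71, adjusted p = 0.0486). Pcna, the sliding clamp of the polymerases, was not called and differed from 0 h by 0.40 in wild-type cells and −0.28 in Gch1fl/flTie2cre cells at 24 h. Rrm2 lost its wild-type call at 8 h without animal 1, 2, 3 or 6 in turn (adjusted p = 0.0733, 0.0769, 0.108 and 0.249). Rrm2 lost its wild-type call at 24 h without animal 1, 2, 3 or 6 in turn (adjusted p = 0.068, 0.0665, 0.0769 and 0.306).

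Nearly all mitotic members fell. In wild-type cells 12 of 13 fell at 8 h and 11 at 24 h, where 16.6 and 15.2% of all genes fell, and in Gch1fl/flTie2cre cells 11 fell at each time (19.2 and 15.7%). The wild-type counts include Kif11, which is near background. None was called at 2 h. Their median difference was −2.76 and −3.07 in wild-type and −2.97 and −3.16 in Gch1fl/flTie2cre cells, and with undetected members at their bounds −1.88, −2.20, −1.92 and −2.41. All 13 were lower at 24 h than at 0 h in all 6 animals, and 12 were at 8 h. The fall was as widespread without animals 5 and 6, again with Kif11 in the wild-type counts. In those 4 animals Kif11 was detected on 0 of 2 wild-type arrays at 0, 8 and 24 h. In animals 1 to 4 alone 12 fell at 8 h (19.9% of all genes) and 13 at 24 h (38.3% of all genes called in either direction) in wild-type cells and 11 and 12 in Gch1fl/flTie2cre cells (22.7 and 17.3%), with medians of −2.55, −3.02, −2.61 and −2.75. Among the 8 mitotic members that were detected also at 8 or 24 h, 7 fell at 8 h and 6 at 24 h in wild-type cells, and 7 at each time in Gch1fl/flTie2cre cells.

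Wild-type Birc5 read from 9.05, 9.84, 11.03 at 0 h through 9.25, 9.64, 10.70 at 2 h and 5.90, 5.30, 7.51 at 8 h to 5.36, 5.05, 5.39 at 24 h. Birc5 in Gch1fl/flTie2cre cells read from 9.29, 9.18, 11.77 at 0 h through 9.40, 9.43, 11.23 at 2 h and 5.61, 5.60, 7.69 at 8 h to 5.31, 5.07, 5.46 at 24 h. Birc5, or survivin, a member of the chromosomal passenger complex, was detected in animal 5 and animal 6 alone at 8 h and in no animal at 24 h. At 8 h it fell by 3.74 ± 0.62 in wild-type cells and by 3.78 in Gch1fl/flTie2cre cells (SE, n = 3, limma adjusted p = 1.2e-04 and 9.5e-05), with 1 of 3 arrays detected in each. At 24 h it was at least 10.8-fold and at least 12.1-fold lower (adjusted p = 9.3e-06 and 7.8e-06).

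Wild-type Cdc20 read from 9.19, 10.03, 10.09 at 0 h through 8.64, 9.59, 9.70 at 2 h and 5.33, 5.47, 6.62 at 8 h to 5.46, 6.32, 5.66 at 24 h. Cdc20 in Gch1fl/flTie2cre cells read from 9.34, 9.29, 10.80 at 0 h through 8.80, 8.96, 10.44 at 2 h and 5.55, 5.73, 6.54 at 8 h to 5.57, 5.25, 5.91 at 24 h. Cdc20, which activates the anaphase-promoting complex, was detected on all arrays at 0 and 2 h and on none later. It was at least 7.57-fold lower at 8 h and at least 9.4-fold lower at 24 h in wild-type cells (adjusted p = 4.6e-07 and 5.8e-07 by limma), and at least 7.18-fold and 10.1-fold lower in Gch1fl/flTie2cre cells. Its 3 other probes fell too at both times in both genotypes.

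Wild-type Stmn1 read from 10.24, 10.85, 11.89 at 0 h through 10.40, 11.25, 12.16 at 2 h and 7.79, 8.20, 10.56 at 8 h to 6.79, 6.21, 6.06 at 24 h. Stmn1 in Gch1fl/flTie2cre cells read from 10.48, 10.53, 12.47 at 0 h through 10.34, 10.55, 12.47 at 2 h and 8.02, 7.76, 10.80 at 8 h to 6.34, 5.75, 5.82 at 24 h. Stmn1, stathmin, destabilizes microtubules, and it fell in 2 steps, with animals 5 and 6 still well above the others at 8 h and not at 24 h. The differences were −2.14 ± 0.71 in wild-type cells and −2.30 in Gch1fl/flTie2cre cells at 8 h (SE, n = 3, limma adjusted p = 0.0242 and 0.0153). At 24 h the wild-type difference was −4.64, with 1 of 3 arrays detected, and Gch1fl/flTie2cre cells, with none detected, were at least 25.6-fold lower (adjusted p = 5.1e-05 and 1.5e-05). Stmn1 lost its wild-type call at 8 h without animal 2 or 3 in turn (adjusted p = 0.108 and 0.173). Stmn1 lost its Gch1fl/flTie2cre call at 8 h without animal 1 or 4 in turn (adjusted p = 0.0837 and 0.116).

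Tpx2, which activates Aurora A on the spindle, was the exception among the mitotic members. Wild-type Tpx2 read from 7.51, 7.99, 9.30 at 0 h through 7.92, 8.50, 10.14 at 2 h and 8.99, 8.97, 10.86 at 8 h to 6.31, 6.31, 8.20 at 24 h. Tpx2 in Gch1fl/flTie2cre cells read from 7.73, 7.88, 9.99 at 0 h through 8.49, 8.47, 10.61 at 2 h and 9.50, 9.99, 10.99 at 8 h to 5.72, 5.70, 7.84 at 24 h. In all 6 animals it was higher at 8 h than at 0 h and lower at 24 h. The 8 h differences of 1.34 ± 0.66 and 1.63 ± 0.66 were not called with all animals (limma adjusted p = 0.121 and 0.058), and were called at 1.23 and 1.94 in animals 1 to 4 alone (adjusted p = 3.8e-04 and 8.5e-06). From 8 to 24 h it fell by 2.67 in wild-type cells, with 2 of 3 arrays detected at 24 h, and by 3.74 in Gch1fl/flTie2cre cells, with 1 of 3 detected (adjusted p = 0.00425 and 2.0e-04). Bub1b, a spindle checkpoint kinase, was lower at 8 h than at 24 h in every animal. It was at least 3.68-fold and 3.67-fold lower at 8 h (adjusted p = 0.00102 and 0.00101) and detected on all arrays again at 24 h, at −1.30 and −1.40 against 0 h, neither of them called. Tpx2 lost its Gch1fl/flTie2cre call at 24 h without animal 1 or 4 in turn (adjusted p = 0.0676 and 0.099).

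The remaining mitotic members are given by their ranges. Cdk1, the kinase that starts mitosis, and Prc1, a bundler of spindle microtubules, fell in both genotypes at both times (Prc1 with 1 of 3 arrays detected in each group at 8 h), with differences of −2.31 to −2.95 for Cdk1 and −3.07 to −4.45 for Prc1. Ccna2, Top2a and Plk1 were detected only at 0 or 2 h and were at least 3.06-fold to 5.43-fold lower afterwards. The Aurora kinase genes fell in all 4 comparisons, Aurka with −1.53 in wild-type cells at 8 h and 1 of 3 arrays detected (limma adjusted p = 0.0473), and Aurkb at least 2.82-fold there. Kif11, a spindle motor detected in animals 5 and 6 alone, was called in wild-type cells, but with 1 of 3 arrays detected at 0 h and none later than 2 h it had no bound above 1 at 8 h and was at least 1.07-fold lower at 24 h. Kif11 was not called in Gch1fl/flTie2cre cells, where the adjusted p was 0.0703 at 8 h and 0.154 at 24 h.

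Partners of the members from wider lists were counted in the same comparisons. Of 32 tested mitosis genes outside the members, 0 rose and 19 fell at 8 h in wild-type cells, and 0 rose and 18 fell at 24 h. The Gch1fl/flTie2cre counts were 0 and 19 at 8 h, and 0 and 20 at 24 h. Of the 32, 13 were detected only at 0 or 2 h, and among the other 19 the falls numbered 10 and 11 in each genotype. At 24 h in wild-type cells Nusap1 and Cdkn3 differed from 0 h by −3.83 (2 of 3 arrays detected at 24 h) and −3.63 (1 of 3), and Anln (anillin, of the cleavage furrow) and Ube2c (a ubiquitin-conjugating enzyme of the anaphase-promoting complex) were at least 6.97-fold and 4.37-fold lower. Of 30 tested replication genes 1 rose and 2 fell at 8 h in wild-type cells (16.6% of all genes fell). At 24 h 4 rose and 4 fell (15.2% of all genes fell). These wild-type falls were a smaller share of the 30 than of all genes, and the 2 at 8 h had no detected array then. In Gch1fl/flTie2cre cells 2 rose and 6 fell at 8 h, and 3 rose and 7 fell at 24 h (19.2 and 15.7% of all genes fell). Only at 0 or 2 h were 4 of the 30 detected, and among the other 26 the falls numbered 1 and 4 in wild-type and 5 and 5 in Gch1fl/flTie2cre cells. Uhrf1, Mcm10, Pold2 and Asf1b fell in wild-type cells at 24 h, with differences of −2.91, −2.43 (1 of 3 arrays detected at 24 h), −1.78 (2 of 3) and −1.41, while the mismatch repair gene Msh6 rose by 1.32 and Pold3, Rfc2 and Rfc1 by 0.87, 0.86 and 0.84. Of 29 tested genes that govern G1, 7 rose and 3 fell at 8 h and 5 rose and 2 fell at 24 h in wild-type cells, and 7 rose and 6 fell, and 4 rose and 4 fell, in Gch1fl/flTie2cre cells. At 24 h in wild-type cells Gadd45g, Mxd1, Rb1 and Mdm2 rose by 1.66, 1.45, 1.12 and 0.92, and the E2F partner Tfdp1 and E2f4 fell, at −1.96 (2 of 3 arrays detected at 24 h) and −0.81. The background shares for these comparisons are those given for the members.

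Between genotypes 1 member was called. Gch1fl/flTie2cre was compared with wild-type at each time, and the responses of the genotypes from 0 h were compared with each other. The paper used littermates matched for age and sex and labels its genotype data as paired, but does not state which animals formed a pair. The genotypes were therefore compared here without pairing. A difference shared by 1 animal of each genotype stayed in the error of the comparisons at each time. Of the 42 members 0 were called at 0, 2 and 8 h, where 0.0225% of all genes were called at each time, and 1 was higher at 24 h, where 0.0676% of all genes were higher and 0.270% lower. None was called in the difference of the responses at 2, 8 or 24 h, where the shares of all genes were 0, 0 and 0.0113%. By limma without adjustment, 1 member had p under 0.05 at 0 h, 0 at 2 and 8 h and 1 at 24 h, and the differences of the responses gave 0, 0 and 1. With a term for animals 5 and 6 against animals 1 to 4, the 1 call at 24 h was kept. In that fit 0 calls between genotypes were gained at 0, 2, 8 or 24 h. Pairs of littermates were not tested.

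The member was Ccnd2, whose values in every animal are given above. All 3 Gch1fl/flTie2cre arrays lay above all 3 wild-type arrays at 0, 2, 8 and 24 h. It was the only member that did so at all 4 times, as did 0.0225% of all genes, and only Ccnd2 was separated upward at any time. The differences were 1.20 ± 0.32, 0.50, 0.45 and 1.53 ± 0.32 (SE, n = 3 against 3), with limma adjusted p of 1, 1, 0.999 and 0.0376. The 95% interval at 24 h was 0.88 to 2.19. The 24 h difference of the responses was 0.33 ± 0.42 (adjusted p = 1), so the higher level at 24 h was not shown to differ from that before stimulation. A second probe gave 1.49 at 24 h (adjusted p = 0.0472), and the third, which is dim, 0.24 (adjusted p = 0.935). The call was lost without animal 1, 3, 4, 5 or 6 in turn (adjusted p = 0.152, 0.636, 0.506, 0.061 and 0.0758) and in animals 1 to 4 alone (1.51, adjusted p = 0.0662).

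The other members gave no call between genotypes, with differences from −1.17 (Ccnd1) to 0.76 (Tyms) at 24 h. These bound little: the standard error of Ccnd1 was 0.89 and that of Tyms 0.73. Arrays of the genotypes did not overlap for 1 member at 0 and 2 h, 2 at 8 h and 5 at 24 h, of 42, where 7.45, 7.49, 9.76 and 11.8% of all genes did not overlap. Besides Ccnd2 these were Cdk4, lower in Gch1fl/flTie2cre cells at 8 h, and Mcm4, Fen1, Cdk1 and Aurka, lower at 24 h. At 24 h Aurka was detected on 2 of 3 wild-type and 0 of 3 Gch1fl/flTie2cre arrays, and values below detection have no order. Cdkn1a gave the 1 unadjusted p under 0.05 among the differences of the responses at 24 h (−0.64 ± 0.28, limma adjusted p = 0.795).

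**Figure D4:**
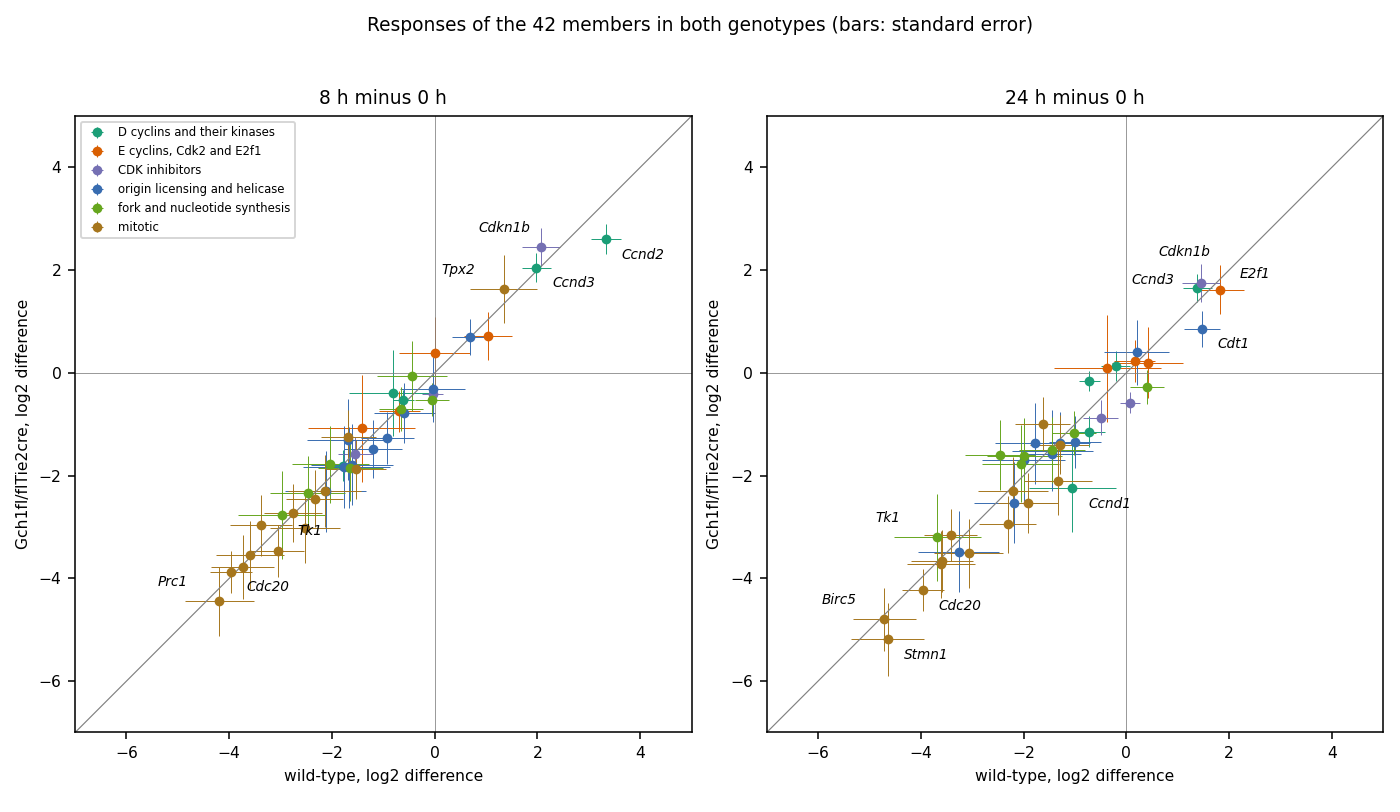
Log2 difference from 0 h at 8 h (left) and 24 h (right) for the 42 members, wild-type on the x axis and Gch1fl/flTie2cre on the y axis, coloured by class, with bars for the standard error of limma and the line of equal responses in grey; values of undetected groups are plotted as fitted. Points lie near the line at both times, with Ccnd2, Ccnd3 and Cdkn1b above 0 and mitotic members at the lower left at 8 h.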

How the data were processed

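RNA was prepared by the authors with mirVana and made into biotin cRNA with MessageAmp from Ambion. They read the arrays on a BeadArray Reader and exported them with GenomeStudio. They deposited bead intensity per probe, not normalized, with a detection p-value per probe that ranks it among negative control beads. They also deposited values on a log2 scale normalized with VSN using limma under R 2.14 (no limma version is given), used here as an alternative. No count depth exists for arrays, and the number of arrays limits the precision.

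The deposited intensities were corrected and normalized with neqc in limma 3.58.1 (R 4.3.3, offset 16, quantile, log2). A probe was tested with detection p under 0.01 on at least 3 of 24 arrays, 16498 of 45281. Group means (8) were fitted with the animal as a random block (statmod 1.5.0) and tested by eBayes with Benjamini-Hochberg adjustment. The labels give the same animals at all 4 times, and the residuals of one animal at different times had median correlations of 0.165 to 0.34, against −0.0174 for different animals. Where a group had no detected array, its bound was the higher of the probe's own signal and the lowest detected signal on each array. The script was tested on simulated data.

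Members and lists were chosen with earlier results of these data known. Values in every array are given for all D cyclins, their kinases, the CDK inhibitors, the 3 members of every other class with the largest wild-type difference at 24 h, and any member called between genotypes. Exceptions in a class carry 1 value or more. Alternatives were the deposited values, no background correction, cyclic loess, no filter and a stricter one, the median over a gene's probes, no block or a fixed block, a term for animals 5 and 6, animals 1 to 4 alone, array weights, no fold limit, and each animal left out. Which arrays shared a chip is not given in the sources used here.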

Additional observations from a re-analysis of the deposited data

How the results depend on the processing

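Of the 148 calls of members in comparisons of times, 144 were kept with cyclic loess, 119 with the deposited log2 values, 118 without background correction, 101 with no filter on dim probes, 126 without the replicate block, 145 with the replicate block fixed and 144 in animals 1 to 4 alone, where 86 were gained and 1 turned direction (Cdk2, 8 h against 2 h in wild-type cells, −0.13 and not called with all animals, 0.60 and called there). The fixed block also gained 53 calls. A term for animals 5 and 6 kept all 148 and gained 56, and array weights kept 144 and gained 51. Leaving out 1 animal kept 110 to 129, and 25 and 33 were gained without animal 5 and without animal 6. The cause of these changes was not tested, except that fewer samples enter some of them.

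For wild-type 24 h against 8 h, 6 members were called, and 3 with the deposited values, 3 without background correction, 3 without the filter, 10 with the replicate block fixed, 10 with a term for animals 5 and 6, 15 in animals 1 to 4 alone, and 2 to 7 leaving out 1 animal. For Gch1fl/flTie2cre 24 h against 8 h, 3 became 5 with the median over probes, 8 with the replicate block fixed, 10 with the term, 14 in animals 1 to 4, 11 with array weights, and 3 to 8 leaving out 1 animal. For 8 h against 2 h, the Gch1fl/flTie2cre count of 25 became 16 without the filter and the wild-type count of 21 became 33 in animals 1 to 4 and 13 to 25 leaving out 1 animal. For 2 h against 0 h, the wild-type count of 3 became 7 in animals 1 to 4, 6 with array weights and 1 to 5 leaving out 1 animal, and the Gch1fl/flTie2cre count of 3 became 5 with the term, 7 in animals 1 to 4, 6 with array weights and 1 to 4 leaving out 1 animal. The wild-type count of 22 was 14 to 28 at 8 h and 13 to 30 at 24 h leaving out 1 animal, lowest without animal 3 and without animal 6, and the Gch1fl/flTie2cre counts of 21 and 22 were 14 to 28 and 16 to 31. Between genotypes at 24 h the count of 1 became 0 without the filter and in animals 1 to 4, and 0 to 1 leaving out 1 animal. Array weights gave 1 call at 0 h (Ccnd2) and 1 in the difference of the responses at 24 h (Cdkn1a), where there were 0. With the replicate block fixed, 3 wild-type calls were lost: Mcm6 at 8 and 24 h (adjusted p = 0.0611 and 0.0529) and Cdkn1b at 2 h (adjusted p = 0.0534).

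With 3 animals per genotype, a difference between genotypes must be large against the spread of the animals to be called, and signals near background give only a bound.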
